A study of Rattus norvegicus with 24 samples.

Results

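Keratins, desmosome proteins and the proteins of the other epithelial cell junctions were represented on the array by 67 probes for 59 of its 7263 genes. A probe was a member when its gene symbol began with the name of a keratin, a desmosomal protein, a cornified envelope protein, a transglutaminase, a cadherin, a catenin, a claudin, occludin, a tight junction protein or a connexin, and when it was not in the study's lists of probes for the MHC and the natural killer gene complex. Those lists removed 0 of the 67 probes. The 59 genes were 7 desmosome genes, 17 cadherins, 7 catenins and relatives, 17 tight junction genes, 9 connexins, 1 transglutaminase and 1 keratin.

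The samples were whole skin explants of 12 BN rats aged 15 weeks, each cultured for 3 days with lymphocytes that had been through a 7-day mixed lymphocyte reaction. One explant of each rat received lymphocytes of its own strain, BN (syngeneic, the control), and the other received PVG lymphocytes (allogeneic), a combination in which the skin develops a graft-versus-host reaction. Both groups were therefore explants of the same animals, both had added lymphocytes, and RNA of the whole explant was measured. One array per rat compared its syngeneic RNA in Cy3 with its allogeneic RNA in Cy5, and another held the same pair in exchanged dyes, so that 24 arrays gave 12 replicates.

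Desmosomes are the rivets of the epidermis. Their desmogleins and desmocollins are cadherins that bind those of the next cell, and plakoglobin and the plakophilins link them to the keratin filaments inside. Adherens junctions use classical cadherins bound to catenins and actin, claudins seal the space between cells in tight junctions, and connexins form the gap junction channels through which small molecules pass. Skin also holds such junctions outside the epidermis, above all between the endothelial cells of its vessels.

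Values are log2 ratios of the allogeneic over the syngeneic sample, so that a gene above 0 had more signal in the allogeneic one. These signs follow the dye labels and are opposite to those in the study's own tables. With the sign turned, every higher gene named here reads as lower and every lower gene as higher. The study also reported quantitative PCR, which does not use the array dyes, on part of these sample pairs. For most of the MHC and natural killer complex genes tested, it gave the direction of the study's own array values. It also gave higher Cd3z in the allogeneic explants. No junction gene was among those genes, and which direction is right was not tested here. Between 74.8% and 90.4% of the probe spots were well above background in a channel on 23 arrays, against 99.7% and 99.9% in the channels of array 1 of rat 10, and precision is limited by the number of rats, 12. All 24 arrays were used, but samples of 2 rats stood apart. Array 1 of rat 10 was far brighter than the others, with a median intensity of 6668 in Cy3 and 25642 in Cy5 against medians of 179 and 353 over all arrays, and its spot pattern was different. The correlation of its log intensities with the mean of the other arrays, across spots, was 0.37 in Cy3 and 0.24 in Cy5, while every other array reached at least 0.947 in Cy3 and 0.956 in Cy5. The lowest of these others were the channels of the 2 arrays of rat 8 that held its syngeneic sample. The log2 ratios of rat 8 had a correlation of 0.214 with the mean of the other rats across genes, against 0.48 to 0.81 for the rest. Counts of changed genes are therefore given with and without these data.

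The probes whose signal carries the main results are shown here as the first 30 of their 60 bases, in the direction of the array design, in lower case throughout. They are the strongest desmosome gene, both probes of the 2 changed genes that had a pair of probes, and the genes of the tight junction and transglutaminase classes that passed the test.
Perp: tgtaagttgcagccaagacaattgcagttt
Cdh5, first probe: ctgtcccttcaaaactgccaagcaaaactg
Cdh5, second probe: tgctgtaaggataatgactatctattagtc
Gja1, bright probe: acaaaaacaaaactcatcacagatgattga
Gja1, dim probe: gtggttaatagaatgattccttataacctt
Tgm2: gtaggcatgctttcgaagcacatgtgaaca
Cldn23: acaccaacccgatggatgtgcttgagggag
Cldn4: aggtctgttcacagctgtaattattatttt
In the rat build rn3, to which the array files refer, the whole Perp probe lies at chr1:13988800-13988859 on the plus strand. The 2 Cdh5 probes lie at chr19:779103-779162 and chr19:777961-778020 on the minus strand, and the Gja1 probes at chr20:35435826-35435885 (bright) and chr20:35435621-35435680 (dim) on the plus strand. The Tgm2 probe lies at chr3:148738776-148738835 (minus strand), the Cldn23 probe at chr16:60110104-60110163 and the Cldn4 probe at chr12:22688736-22688795 (both plus strand). Each of these covers 60 bases of the genome without a gap, whereas 7 member probes, the single probe of Dsc3 among them, span more than their own length and so bridge an interruption such as an intron. Whether a probe lies in coding sequence or in an untranslated region was not determined here.

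Junction genes moved in both directions, and in the main fit every mean over the 12 rats was less than 2-fold in size. Of the 59 genes, 11 changed between the allogeneic and syngeneic explants at an adjusted p under 0.05, which is 18.6% of them. Over all genes the share was 16.3%, so that the junction genes were called about as often as the rest of the array. Higher in the allogeneic sample were 8 genes, Perp, Cdh5, Cdh13, Cdh3, Gja1, Cldn23, Ctnnd2 and Cdh16, against a background of 8.66% of all genes. Lower were 3 genes, Tgm2, Cdh17 and Cldn4, against 7.6% of all genes. By single probes, 12 of 67 member probes changed, where 17.3% of all probes did. The median log2 ratio of the 59 genes was 0.04 and that of all genes 0.01, and 40 of the 59 (67.8%) had a mean above 0 whether or not they passed the test, as did 4307 of all 7263 genes (59.3%). The ratio lay above 0 in all 12 rats for 3 genes, Cdh5, Gja1 and Cldn23, and below 0 in all 12 rats for Cdh17.

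**Figure D1:**
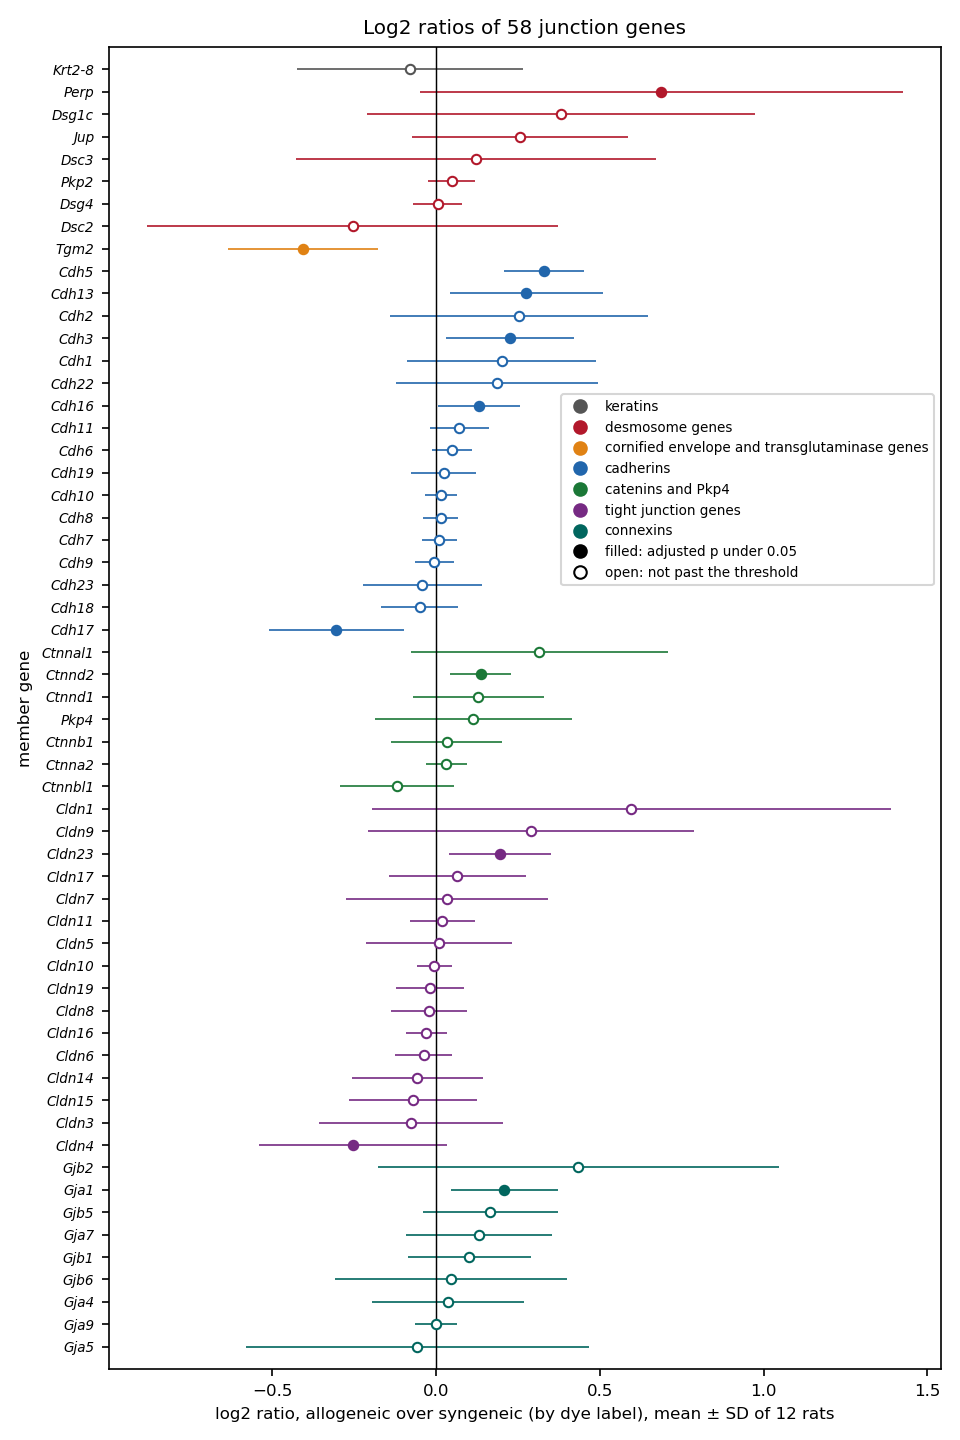
Log2 ratio of the allogeneic over the syngeneic sample (x axis, by dye label) for 58 of the 59 junction genes (y axis, grouped and colored by class), as the mean ± SD of 12 rats, with filled points for an adjusted p under 0.05. Perp has the highest mean (0.69) and Tgm2 the lowest (-0.41), and the widest SDs belong to Cldn1 and Perp.

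Rat 8 set the spread of many of these genes. It gave the highest of the 12 ratios for 22 of the 59 genes and the lowest for 12. The SD of its ratios over the 59 genes was 0.777, against 0.206 to 0.359 in the other rats. Over all genes its SD was 0.703. Without rat 8, 16 member genes changed (27.1%), 13 of them higher, where 24.1% of all genes did. These 16 held 10 of the 11 genes named above, all but Cldn4, and added Cldn1, Ctnnal1, Ctnnd1, Jup, Gjb5 and, in the lower direction, Dsc2. With rat 10 represented by its second array alone, 15 member genes changed (25.4%, with 17.6% of all genes), among them all 11. With both steps together, 17 changed (28.8%, with 25.6% of all genes).

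Perp, a tetraspan membrane protein needed for the assembly of desmosomes, had the highest log2 ratio of all members. Its values were -0.02 in the lowest rat, 0.60 at the median and 2.71 in the highest, and 11 of 12 rats lay above 0. The mean was 0.69 ± 0.74 (SD, n = 12), a 1.61-fold higher signal in the allogeneic sample (SE 0.20, adjusted p = 0.033). The 2.71 came from rat 8, and the next highest rat had 1.23. Without rat 8 the log2 ratio was 0.50 with an adjusted p of 0.0048. The log2 intensity of Perp in the allogeneic samples ran from 16.10 to 17.02 (median 16.70). In the syngeneic samples it ran from 14.15 to 16.58 (median 16.10), with rat 8 at 14.15 and the next lowest rat at 15.60. The 2 groups overlapped in level, and the comparison rests on the difference within each rat. The call was not firm. Its adjusted p was 0.051 in a one-sample t test of the rat means, run in place of the mixed-effects ANOVA of the methods. Leaving out rat 2, 5, 7, 9, 11 or 12 gave ratios of 0.64 to 0.70 and adjusted p values of 0.053 to 0.072 (limma).

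Dsc3, the desmocollin of the lower epidermal layers, did not pass the test. Its log2 ratio was -0.72 in the lowest rat, -0.01 at the median and 1.06 in the highest, which was again rat 8, and 6 of 12 rats lay above 0. The mean was 0.12 ± 0.55 (SD, n = 12), with a 95% interval from -0.23 to 0.47 and an adjusted p of 0.64. The Perp mean lies outside that interval, but its own 95% interval, from 0.22 to 1.16, overlaps it. The difference between Perp and Dsc3 was not tested. The slides differed for this gene, with means of 0.27 and 0.40 on slides 1 and 2 and -0.30 on slide 3, and each slide held 4 rats and both groups. For Perp the 3 slide means were 0.33, 1.06 and 0.67.

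No relation between Perp and Dsc3 from rat to rat passed a test. Over the 12 rats their log2 ratios had a Pearson correlation of 0.23 (p = 0.5, permutation test, two-sided) and a Spearman correlation of -0.25 (p = 0.43). Without rats 8 and 9, the 2 farthest from the Perp median, Pearson's r was -0.47 (p = 0.16, permutation test). This was the only relation across rats that was tested. With the ratios centered within each slide of 4 rats, r was 0.25 (p = 0.64, exact permutation test within slides, two-sided), and without rat 8 it was -0.45 (p = 0.16, exact permutation test).

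Among the other desmosome genes, Jup, which encodes plakoglobin, missed the threshold. Its ratios ran from -0.40 (rat 8) over a median of 0.22 to 0.71, with 10 of 12 rats above 0 and a mean of 0.26 ± 0.33 (SD, adjusted p = 0.073). In contrast to Perp, rat 8 was its lowest rat, and without it Jup passed with a log2 ratio of 0.32 (adjusted p = 0.0088). Dsg1c, a desmoglein, had a mean of 0.38 ± 0.59 (SD, adjusted p = 0.13), from -0.55 to 1.86. Dsc2, the most widely expressed desmocollin, had the only negative mean in the class, -0.26 ± 0.63 (SD, adjusted p = 0.36). Its ratio lay below 0 in 10 of 12 rats and reached 1.43 in rat 8, and without that rat it was lower, at -0.41 (adjusted p = 0.0096). Pkp2 (0.05) and Dsg4 (0.01), a plakophilin and a desmoglein of the hair shaft and upper epidermis, lay near 0, and the Dsg4 probe was above background on 10 of 24 arrays.

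**Figure D2:**
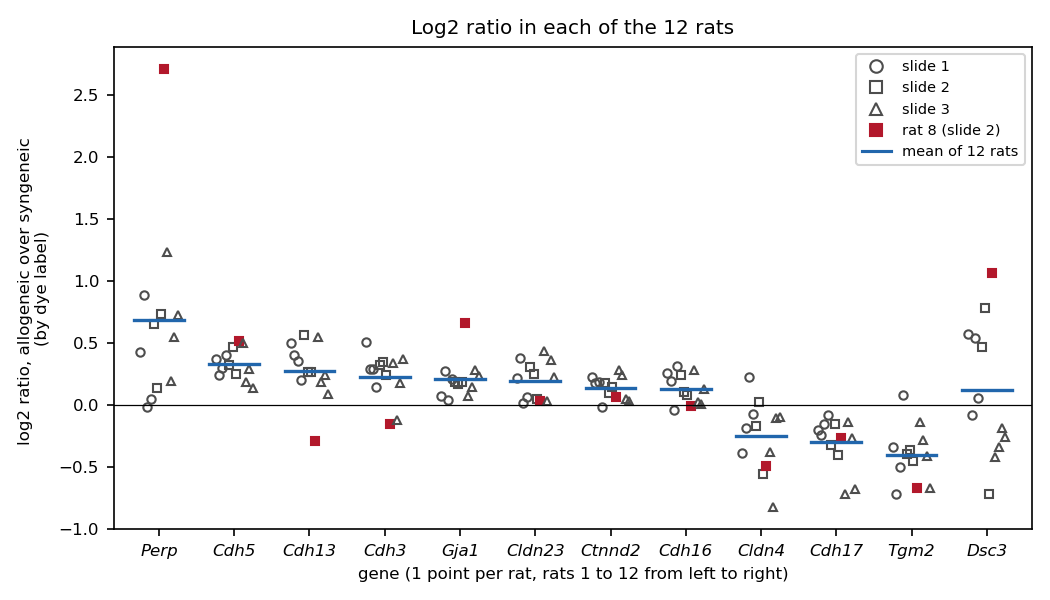
Log2 ratio of the allogeneic over the syngeneic sample (y axis) in each of 12 rats for the 11 junction genes that changed and for Dsc3 (x axis), with symbols for the 3 slides, rat 8 in filled red and a bar for the mean. Perp ranges from -0.02 to 2.71 with rat 8 at the top, Cdh5 lies above 0 in all 12 rats, and Dsc3 has 6 rats on each side of 0.

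Few of the usual keratinocyte markers could be read among the members, and they give no independent check of the skin origin of the samples. Of 12 such genes on a list, 3 had a member probe, namely Perp, Dsc3 and Jup, and all 3 were well above background in both channels of every array. Most probe spots of the arrays were above background as well. The single keratin was Krt8 (Krt2-8 in the files), a keratin of simple epithelia. Its log2 ratio was -0.08 ± 0.35 (SD, n = 12, adjusted p = 0.63), from -0.82 in rat 8 over a median of -0.02 to 0.30. With 6 rats on each side of 0 it showed no direction.

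The transglutaminase was Tgm2, the tissue transglutaminase, a protein cross-linking enzyme of many cell types including endothelial cells and macrophages, and not one of the enzymes that build the cornified envelope. It was the most strongly lowered member. Its log2 ratio was -0.72 in the lowest rat, -0.40 at the median and 0.08 in the highest, and 11 of 12 rats lay below 0. The mean was -0.41 ± 0.23 (SD, n = 12), a 1.33-fold lower signal in the allogeneic sample (SE 0.06, adjusted p = 0.001). The 3 slide means were -0.37, -0.47 and -0.38, and both dye orientations gave nearly the same value, -0.40 and -0.41. Log2 intensities ran from 13.50 to 14.34 in the allogeneic and from 13.74 to 14.74 in the syngeneic samples, so that the groups overlapped in level. Tgm2 passed the test under every alternative run, with values between -0.52 and -0.37.

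**Figure D3:**
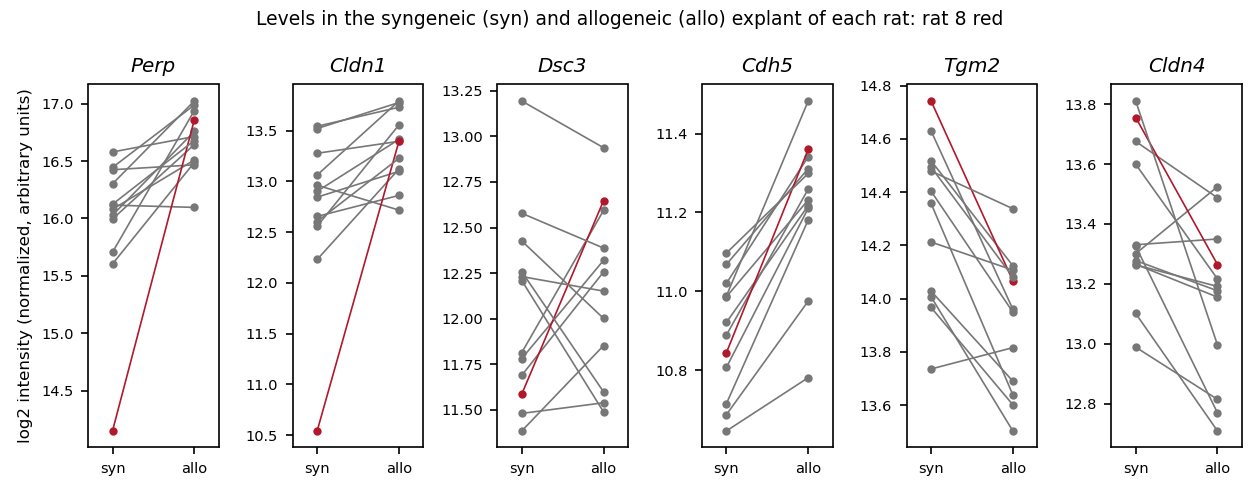
Normalized log2 intensity (y axis, arbitrary units, a scale of its own in each panel) of 6 junction genes in the syngeneic and the allogeneic explant, with a line for each of 12 rats, rat 8 in red and rat 10 from its second array. For Perp and Cldn1 the syngeneic explant of rat 8 lies far below those of the other rats (14.15 and 10.54), Cdh5 lines rise in all 12 rats, Tgm2 lines fall in 11, and Dsc3 lines cross.

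The cadherins held 5 of the 11 changed genes, 4 higher and 1 lower of 17 measured. That is 29.4% of the class, where 16.3% of all genes changed. Their median log2 ratio was 0.05, with a range from -0.30 to 0.33. Cdh5, the VE-cadherin of endothelial junctions, had the smallest adjusted p of all members. Its log2 ratio was 0.13 in the lowest rat, 0.31 at the median and 0.52 in the highest. The mean was 0.33 ± 0.12 (SD, n = 12, SE 0.03, adjusted p = 0.0001), a 1.26-fold higher signal. Both of its probes passed alone, with log2 ratios of 0.38 and 0.28, each above 0 in 12 of 12 rats. The intensity ranges of the groups overlapped, from 10.78 to 11.48 in the allogeneic and from 10.65 to 11.10 in the syngeneic samples. The slide means were 0.33, 0.39 and 0.28. The mean was 0.57 on arrays with the allogeneic sample in Cy5. With it in Cy3 the mean was 0.09 and did not pass (adjusted p = 0.084, limma).

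Other endothelial genes were measured beside it. Of 9 endothelial markers outside the junction genes, 3 were higher, Icam2 (0.39), Pecam1 (0.17, listed as Pecam) and Flt1 (0.08), and 0 lower. That is 33.3% called, where 16.3% of all genes were. The median log2 ratio of the 9 was 0.07. With median centring in place of loess 1 of the 9 passed, and on arrays with the allogeneic sample in Cy5 5 did. The vascular endothelial growth factor receptor Kdr had 0.02, and Tek 0.07. Of the 9 markers, 7 had a mean above 0 and 2 below, Esam (-0.11) and Tie1 (-0.08), which did not pass. The mean log2 intensity over the 9 markers ran from 9.74 to 10.32 in the allogeneic and from 9.67 to 10.12 in the syngeneic samples. In such bulk RNA, fewer or more cells of a type cannot be told apart from less or more RNA per cell, and the part of endothelial cell number in the Cdh5 result was not tested. The endothelial claudin Cldn5 had a log2 ratio of 0.01 ± 0.22 (SD, adjusted p = 0.94), and the vascular connexins Gja4 and Gja5 had 0.04 (adjusted p = 0.76) and -0.06 (adjusted p = 0.83).

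Cdh13, the T-cadherin, which is anchored to the membrane by a lipid and found on endothelial cells and basal keratinocytes, was higher by 0.28 ± 0.23 (SD, n = 12, adjusted p = 0.011). Its ratio was -0.29 in rat 8, 0.27 at the median and 0.56 in the highest rat, and rat 8 was the only rat below 0. Cdh3, the P-cadherin of the basal epidermis and hair follicle, was higher by 0.23 ± 0.20 (SD, adjusted p = 0.012), from -0.16 in rat 8 over a median of 0.29 to 0.50, with 10 of 12 rats above 0. For both genes the dyes mattered. Over the 12 arrays that had the allogeneic sample in Cy5, Cdh13 had a mean of 0.54. Over the 12 with the dyes exchanged it had 0.01 and did not pass. The Cdh3 mean was 0.65 over the 12 arrays that had the allogeneic sample in Cy5. Over the 12 with the dyes exchanged it was -0.19, which passed the test in the opposite direction (adjusted p = 0.014). Median centring in place of loess ended the calls of both genes.

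E-cadherin (Cdh1), the main classical cadherin of the epidermis, had a log2 ratio of 0.20 ± 0.29 (SD, adjusted p = 0.11), from -0.33 to 0.73 with 9 of 12 rats above 0. With rat 10 represented by its second array it passed. N-cadherin (Cdh2), of mesenchymal and neural cells, had 0.25 ± 0.39 (SD, adjusted p = 0.14). Cdh11, the cadherin of fibroblasts and other mesenchymal cells, had 0.07 ± 0.09 (SD, adjusted p = 0.09). One of its 2 probes was above background in both channels on 0 of the 23 arrays without array 1 of rat 10, and the other probe alone gave 0.08 (adjusted p = 0.17 over all probes).

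Cdh16 and Cdh17, cadherins best known from kidney and intestine, also passed. Cdh16 was higher by 0.13 ± 0.12 (SD, n = 12, adjusted p = 0.023), from -0.04 over a median of 0.12 to 0.31, and it lost the call without rat 1, 5 or 9. Cdh17 was lower by 0.30 ± 0.21 (SD, adjusted p = 0.0031), from -0.72 over a median of -0.25 to -0.09, and below 0 in 12 of 12 rats. Its signal was dim, however. Leaving out array 1 of rat 10, the probe was well above background in the allogeneic channel of 1 of 23 arrays and in the syngeneic channel of 10. The processed signals of the scanner software, with another background subtraction and dye normalization, gave -1.83, while the mean signals without background correction gave -0.29. The remaining cadherins (Cdh6, Cdh7, Cdh8, Cdh9, Cdh10, Cdh18, Cdh19, Cdh22 and Cdh23) had means between -0.05 and 0.19 and did not pass.

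Of the 7 catenins and relatives, 1 was higher and 0 lower, with a median log2 ratio of 0.11. That is 14.3% called, where 16.3% of all genes were. Ctnnd2, a delta-catenin best known from neurons, was higher by 0.14 ± 0.09 (SD, n = 12, adjusted p = 0.0045), from -0.02 over a median of 0.16 to 0.28, with 11 of 12 rats above 0. It passed under every alternative run. Ctnnal1, an alpha-catenin relative, had the largest mean in the class, 0.32 ± 0.39 (SD, adjusted p = 0.063), from -0.01 over 0.24 to 1.47 in rat 8. Its 2 probes gave 0.45 and 0.18. Without rat 8 the value fell to 0.21 and passed (adjusted p = 0.0045). Beta-catenin (Ctnnb1), the catenin shared by adherens junctions and Wnt signaling, had 0.03 ± 0.17 (SD, adjusted p = 0.7), and Ctnnd1, the catenin that stabilizes cadherins at the membrane, had 0.13 ± 0.20 (SD, adjusted p = 0.14). The others were Pkp4 (0.11), Ctnna2 (0.03) and Ctnnbl1 (-0.12).

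The 17 tight junction genes split into 8 with a mean above 0 and 9 below, with a median log2 ratio of -0.01. Of these genes 2 passed (11.8%, with 16.3% of all genes), 1 in each direction. Cldn23 was higher by 0.20 ± 0.15 (SD, n = 12, SE 0.04, adjusted p = 0.0077), from 0.01 over a median of 0.22 to 0.44, and above 0 in 12 of 12 rats. It kept its call under every alternative run, with values between 0.16 and 0.23. Cldn4, a claudin of the outer living layers of the epidermis, was lower by 0.25 ± 0.29 (SD, SE 0.08, adjusted p = 0.042), from -0.83 over a median of -0.18 to 0.22, with 10 of 12 rats below 0. That call was the least firm of the 11. It passed in 2 of the 12 fits that left out 1 rat each, those without rat 3 and without rat 6, and its ratio was -0.09 with the allogeneic sample in Cy5 and -0.42 with it in Cy3.

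Cldn1, the claudin on which the barrier of the epidermis depends, had the second-largest mean of all members but did not pass. Its ratio was -0.25 in the lowest rat, 0.33 at the median and 2.85 in rat 8, and 11 of 12 rats lay above 0. The mean was 0.60 ± 0.79 (SD, n = 12, adjusted p = 0.079). As with Perp, the syngeneic sample of rat 8 was the odd value, at a log2 intensity of 10.54 where the next lowest rat had 12.23. Without rat 8 the log2 ratio was 0.39 and passed (adjusted p = 0.014). The exact signed-rank test, which does not weigh the size of the rat 8 value, also called it. Cldn7, an epidermal claudin, had 0.03 ± 0.31 (SD, adjusted p = 0.83). Among the other claudins, the means lay between -0.08 (Cldn3) and 0.29 (Cldn9).

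Of the 9 connexins, 1 was higher and 0 lower (11.1% called, with 16.3% of all genes), with a median log2 ratio of 0.10. Gja1, the most widely expressed connexin of skin, was higher by 0.21 ± 0.16 (SD, n = 12, adjusted p = 0.0072), from 0.04 over a median of 0.18 to 0.66 in rat 8, and above 0 in 12 of 12 rats. Its 2 probes disagreed. The bright one gave 0.43 (adjusted p = 0.0081 over all probes) with 12 of 12 rats above 0, while the dim one gave -0.01 (adjusted p = 0.84) and was above background on 1 of 24 arrays, array 1 of rat 10. The gene value, a mean over both probes, therefore understates what the bright probe measured. With the processed signals of the scanner software or the deposited table of log ratios Gja1 did not pass.

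Gjb2, a connexin of the upper epidermis and sweat glands, had the largest mean of the class, 0.43 ± 0.61 (SD, n = 12, adjusted p = 0.098). Its ratio was -0.37 in the lowest rat, 0.53 at the median and 2.04 in rat 8, with 9 of 12 rats above 0. The syngeneic sample of rat 8 again had the lowest level, 15.49 against 16.48 in the next rat. The dye orientations gave 0.92 and -0.05. Gjb5, another epidermal connexin, had 0.17 ± 0.21 (SD, adjusted p = 0.066). Gjb6, which pairs with Gjb2 in the epidermis, had 0.05 ± 0.35 (SD, adjusted p = 0.8). Gjb1 (0.10), Gjc1 (0.13, listed as Gja7) and Gjd2 (0.00, listed as Gja9) did not pass either.

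The exchange of dyes was needed to read these genes. Of the 59 members, 24 had means of opposite sign in the 2 orientations. Some of these lay near 0 in both, such as Cdh7 (0.05 and -0.03) and Dsg4 (0.03 and -0.02). The share over all genes was not computed. With the 12 arrays that carried the allogeneic sample in Cy5, 22 members passed (37.3%, with 30.2% of all genes), and with the other 12 arrays 16 did (27.1%, with 28.7% of all genes). Cdh5 had means of 0.57 and 0.09, Cdh13 of 0.54 and 0.01, and Perp of 0.85 and 0.52. A constant dye effect cancels in the mean over both orientations and not in either alone.

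**Figure D4:**
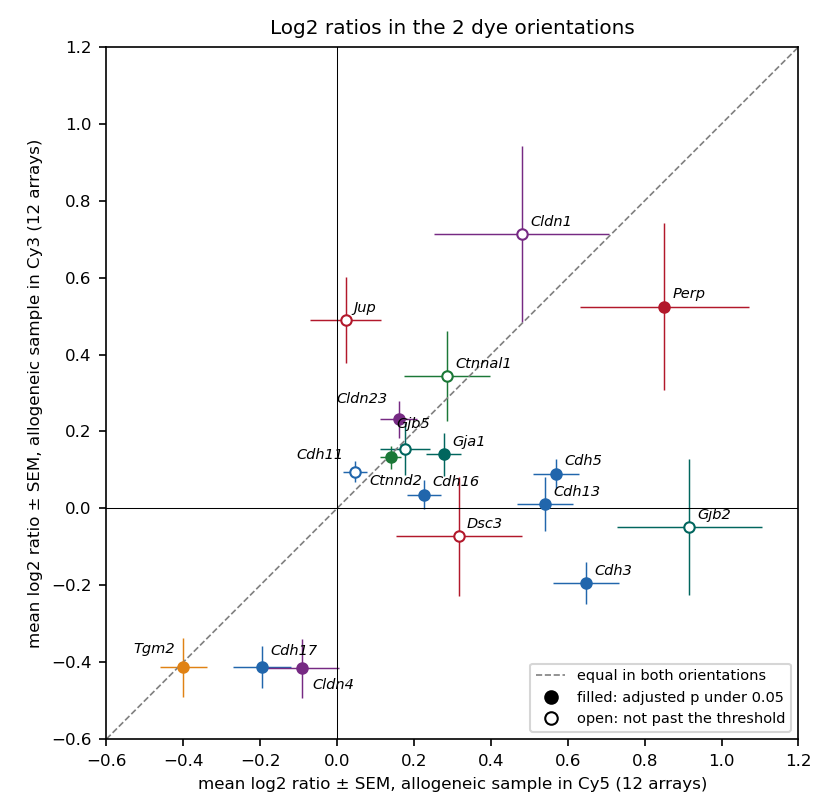
Mean log2 ratio ± SEM of 12 arrays with the allogeneic sample in Cy5 (x axis) and of the 12 dye-swapped arrays with it in Cy3 (y axis), for the junction genes with an adjusted p under 0.1 and Dsc3, colored by class as in the plot of all junction genes. Tgm2, Ctnnd2 and Cldn23 lie close to the dashed line of equal values, while Cdh3 (0.65 and -0.19), Gjb2 (0.92 and -0.05) and Jup (0.02 and 0.49) lie far from it.

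Other epidermal genes were read on the same arrays. Of 20 epidermal genes outside the junction classes, 6 were higher and 2 lower, with a median log2 ratio of 0.21. The higher ones included Lgals7 (0.66), a galectin of stratified epithelia, Casp14 (0.57), a caspase of cornifying keratinocytes, Cstb (0.32), and the transcription factor genes Grhl1 (0.28) and Gata3 (0.21). Lower were the epithelial transcription factor gene Ehf (-0.44) and Alox12 (-0.07), whose probe was above background in both channels on 2 of 24 arrays. Trp63, the master regulator of stratified epithelia, had 0.30 ± 0.75 (SD, adjusted p = 0.36).

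Genes for the ties of basal keratinocytes to the basement membrane were measured too. Of 8, 3 were higher, the integrin genes Itgb4 (0.31) and Itga2 (0.28) and the laminin gene Lama5 (0.26), and 0 lower, with a median of 0.12. Of 24 further junction partner genes, 2 were higher, Vcl (0.25) and F11r (0.26), which encode vinculin and a junctional adhesion molecule. Lower were 4, Pard6b (-0.28), Pvr (-0.26, listed as PVR), Vasp (-0.19) and Panx1 (-0.18), with genes for a polarity protein, a nectin-like receptor, an actin regulator and a pannexin channel. The median of the 24 was 0.04. The share called was 40% for the epidermal list, 37.5% for the basement membrane list and 25% for the junction partners. Over all genes it was 16.3%.

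Markers of other cell types moved as well. The share called was 55.6% for macrophage, 41.7% for T cell and 50% for fibroblast markers, where it was 16.3% over all genes. By direction, 7.6% of all genes were lower and 8.66% higher. Of 9 macrophage markers, 5 were lower in the allogeneic samples and 0 higher, with a median log2 ratio of -0.46. Fcgr3a had -2.19, Trem2 -1.69 and Ctss -1.40, while Cd14 had 0.01 and Cd163 0.18. Csf1r (-0.22) and Itgam (-0.60) passed too, and Cd14, Mrc1, Emr1 and Cd163 did not. Fcgr3a, Trem2 and Ctss are among the most strongly regulated genes in the study's report of these arrays. The share called for macrophage markers is therefore not independent of that report. The study's own tables give Fcgr3a, Trem2 and Ctss as higher in the allogeneic explants, with log2 changes larger in size than those here. Turning the sign therefore does not bring the values together. The mean log2 intensity over the 9 macrophage markers ran from 9.85 to 10.55 in the allogeneic and from 10.18 to 11.41 in the syngeneic samples. Of 12 T cell markers, 5 were lower and 0 higher, with a median of -0.21. The lower ones were Cd5 (-0.97), Lck (-0.70), Cd8b (-0.49), Cd8a (-0.32) and Cd2 (-0.26). The slides differed, with means of -0.31, -0.80 and -1.80 for Cd5 and of -0.28, -0.67 and -1.14 for Lck. Zap70 (0.09) was the only marker of the list above 0, and neither it nor Cd3z (-0.07) passed. Cd3e had -0.11 and Cd4 -0.05, the last above background in both channels on 5 of 24 arrays, and the mean intensity of the list ran from 7.66 to 8.13 and from 7.86 to 8.55. Of 4 fibroblast markers, 2 were higher, Col1a2 (0.55) and Pdgfrb (0.43), 0 lower, with a mean intensity from 10.96 to 11.60 and from 10.54 to 11.32. Neither of 2 skeletal muscle markers passed, with SDs over rats of 1.01 and 1.02. The part that differences in cell makeup had in the junction genes was not tested.

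**Figure D5:**
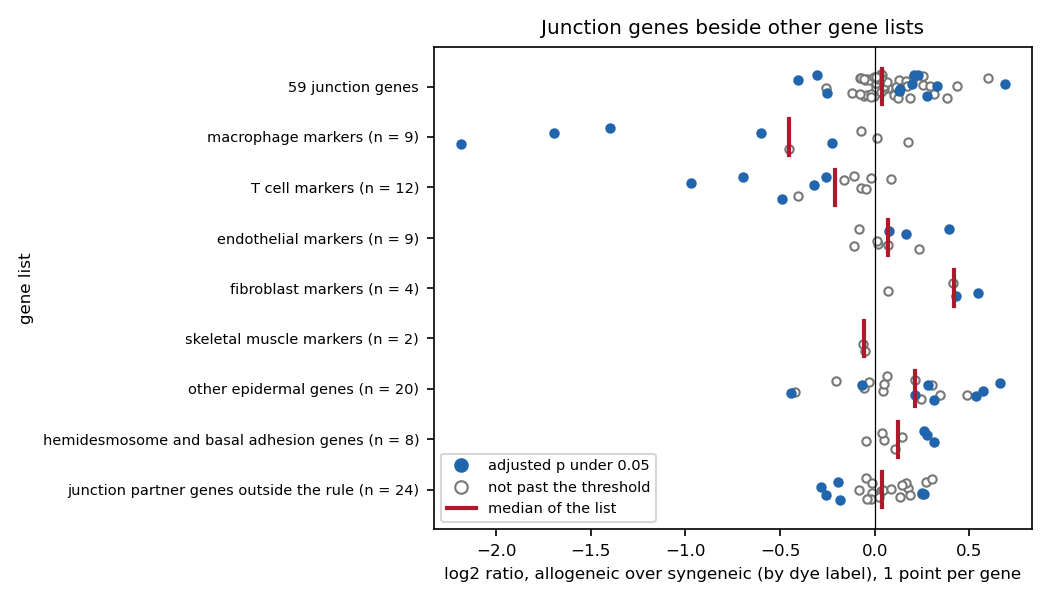
Log2 ratio of the allogeneic over the syngeneic sample (x axis) for each gene of the 59 junction genes and of 8 other lists (y axis, with the number of genes), filled where the adjusted p was under 0.05, with a red bar at the median of each list. The junction genes center near 0 (median 0.04), macrophage markers lie lowest (median -0.46) and fibroblast markers highest (median 0.42).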

How the data were processed

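The authors deposited 1 scanner file per array from a custom Agilent 2-color array. Per the file headers, mean spot intensities and local background intensities in Cy3 and Cy5 were extracted with Feature Extraction 9.5.1.1 and are not normalized. Processed intensities, background-subtracted and dye-normalized by that software, stand beside them, with 0 or 1 flags per spot. The authors also deposited a log2 ratio table with a column for each array, whose background treatment and centring are not stated. Its columns had correlations of 0.707 to 0.955 with the allogeneic over syngeneic ratio, so it was taken as turned already, and column medians lay between -0.027 and 0.022.

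Here the mean intensities were background-corrected (normexp, offset 50) and loess-normalized per array (limma 3.58.1, R 4.3.3). Control and outlier spots were left out. Ratios were turned by the dye labels and averaged over spots, probes of a gene and the 2 arrays of a rat. The 7263 genes and, separately, 8453 probes were tested against 0 with limma and Benjamini-Hochberg adjustment over all of them. Each array held both samples of a rat, so the comparison is within rats. Levels are intensities after Aquantile normalization between arrays, without array 1 of rat 10. Symbols were matched to RefSeq (58 of 59).

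The genes named in full are Perp, Dsc3, members with an adjusted p under 0.05 and the member with the largest log2 ratio in each class. Those between 0.05 and 0.1 are named with values. The members and lists were chosen with earlier results of these data known. Values of 2 single genes are not reported here, although both are in the counts.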

Additional observations from a re-analysis of the deposited data

How the results depend on the processing

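The 24 alternatives fixed at the outset concerned background, normalization, dye orientation, dim and outlier spots, slide, probe choice, the test, the deposited log ratios and leaving out each rat, and 2 that treat rats 8 and 10 differently were chosen after seeing the data. Only the arrays with the allogeneic sample in Cy5 moved the number of changed members beyond 1.5 times, to 22 genes and 24 probes (11 and 12 with all arrays), together with leaving out rat 8 and using the second array of rat 10 alone, which gave 17 genes. Leaving out 1 rat gave 8 to 16 genes and 9 to 18 probes. Perp kept its direction throughout but not its call. It had 0.52 (adjusted p = 0.072, limma) on arrays with the allogeneic sample in Cy3. The one-sample t test of the rat means, run in place of the mixed-effects ANOVA, gave 0.69 (adjusted p = 0.051). Without 1 rat Perp had 0.50 to 0.75, and 6 of 12 fits passed. Dsc3 never passed and had 0.04 to 0.20 without 1 rat. On arrays with the allogeneic sample in Cy3, Cdh3 (-0.19), Dsc3 (-0.073), Gjb2 (-0.048) and Krt8 (0.12) had the opposite sign. The correlation of Perp and Dsc3 was 0.20 with processed signals and 0.10 with median centring, and the value within slides was added after seeing the data. Counts of changed genes in other lists moved too. On arrays with the allogeneic sample in Cy5 the other epidermal genes rose from 8 to 14 and the endothelial markers from 3 to 5. The share over all genes rose there from 16.3% to 30.2%. With median centring 1 endothelial marker changed, with 13.2% of all genes. On arrays with the allogeneic sample in Cy3 the basal adhesion genes rose from 3 to 7, with 28.7% of all genes. Without rat 8 the fibroblast markers rose from 2 to 4, with 24.1% of all genes. They also rose to 4 with the second array of rat 10 alone in addition, with 25.6% of all genes. Tgm2, Cldn23 and Ctnnd2 passed under all 26 alternatives. The other calls ended under at least 1, and the cause was not tested. Probes not well above background, 8 of the 67 on all or all but 1 of 23 arrays, give no usable ratio at this signal.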
